A study of Mus musculus with 12 samples.

Results

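The chaperonin CCT, also called TRiC, is a barrel of a pair of stacked rings that folds newly made proteins in the cytosol. Each ring holds 1 copy of each of 8 related subunits, and the barrel is best known for folding actin and tubulin, which few other chaperones can do. Because the subunits are used in equal numbers, their synthesis can be set beside an even share. The subunits were taken as the genes Tcp1, Cct2, Cct3, Cct4, Cct5, Cct6a, Cct7 and Cct8, and 7 of the 8 were measured here among the 22462 genes of the count table. The exception was Cct6a, the zeta subunit, which was not analysed here. Gencode M21 lists 7 transcripts of Cct6a, of which 4 are typed as processed transcripts and 3 as retained introns. The table counts coding sequence only, from the other release Gencode M14, whose entry for Cct6a was not examined. These annotation types do not show that the gene makes no protein.

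The study asked how mRNA levels and translation change when mouse embryonic stem cells (ESCs) become epiblast-like cells (EpiLCs), a later state of pluripotency. ESCs were grown in 15% serum with LIF and 2i, the inhibitors PD0325901 and CHIR99021 that hold them in the naive state. EpiLCs came from ESCs plated for 24 hours, after which the LIF/2i medium was taken off and cells were collected about 56 hours later. From each cell type came 3 libraries of total RNA and 3 of ribosome protected fragments (RPFs, the stretches of mRNA that a translating ribosome shields), 12 in all. The labels do not say whether replicates came from separate cultures, though the study's text calls its replicates biological. P-values measure the spread between these libraries, part of which may be technical.

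Library totals were 2681439 to 11359352 counts for RPF and 6188838 to 14655015 for total RNA. Naive and primed markers followed the labels. Levels are given as CPM, counts scaled to an equal library total, with the totals adjusted by the TMM factors of edgeR. The summed level of the naive markers Zfp42, Esrrb and Klf4 was 839 to 924 CPM in ESC and 35.3 to 59.0 CPM in EpiLC total RNA. That of the primed markers Dnmt3b, Otx2 and Fgf5 was 102 to 189 CPM and 1057 to 1150 CPM. Markers shared by both states, Pou5f1, Sox2 and Nanog, summed to 2154 to 2372 CPM in ESC and 1082 to 1242 CPM in EpiLC total RNA. Their log2 changes to EpiLC in total RNA were -0.65 (Pou5f1), -2.72 (Sox2) and -1.58 (Nanog). Fibroblast markers (Col1a1, Col1a2, Col3a1 and Thy1) summed to 1.94 to 2.23 CPM in ESC and 8.82 to 11.8 CPM in EpiLC total RNA, and to 6.15 to 7.16 CPM and 31.3 to 34.4 CPM in RPF, with Col3a1 at 0 in every ESC RPF library. Markers of mesoderm, endoderm and neuroectoderm, 7 genes, summed to 13.2 to 16.7 CPM in ESC and 24.2 to 29.6 CPM in EpiLC total RNA. Of the 3 of these that were tested, Pax6 rose by 4.77 ± 0.56 in total RNA (log2, SE, limma adjusted p = 4.9e-08). Gata4 (0.58) and Sox1 (0.18) did not pass in total RNA. In RPF, Pax6 (4.39) and Sox1 (0.54, limma adjusted p = 0.038) were higher in EpiLC, and Gata4 (0.56) did not pass. The part of cells of these kinds in the changes of CCT described further on was not tested.

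The subunits are encoded on different chromosomes (mm10 coordinates of the counted coding sequence). Tcp1, the alpha subunit and the founding member, first mapped to the mouse t-complex, lies at chr17:12916611-12924476 on the plus strand. Cct2 (beta) lies at chr10:117051246-117063008 on the minus strand, Cct3 (gamma) at chr3:88299356-88321548 on the plus strand and Cct4 (delta) at chr11:22990799-23003151 on the plus strand. Cct5 (epsilon) lies at chr15:31590928-31601660 on the minus strand, Cct7 (eta) at chr6:85459154-85468277 on the plus strand and Cct8 (theta) at chr16:87483988-87495743 on the minus strand. The counted coding sequence, without its first 45 nt, was 1575 nt in Cct4 and up to 1659 nt in Tcp1, and no subunit shared counted bases with another gene. With lengths this alike, the subunits could be compared per nt with little correction.

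Retrocopies (processed pseudogenes) carry pieces of several subunits elsewhere in the genome. Only reads with 1 mapping position were counted, so a read that a pseudogene also holds is lost to its subunit. Of the 29 nt windows along each coding sequence, 18.9% of those of Cct3, 12.5% of Cct7, 6.40% of Cct4, 5.01% of Tcp1 and 0.391% of Cct2 also occurred in a Gencode M21 transcript of a gene at another place, mostly in processed pseudogenes. None did for Cct5 or Cct8. The sequences below show why such reads cannot be placed, for the subunits with the largest such shares. Each pair gives 30 bases of a coding exon and of the pseudogene that shares most windows with it. The capital marks the base that differs, and the lower-case run before it, as long as a footprint, is the same in both (GRCm38.p6, Gencode M21, 5′ to 3′).
Cct3, chr3:88320604-88320633, plus strand: caatggccatatagagctgtggcccaggcG
Cct3-ps1, chr4:52902345-52902374, plus strand: caatggccatatagagctgtggcccaggcA
Cct7, chr6:85467582-85467611, plus strand: gactctgtggtggctggtggtggagccatC
Gm5380, chrX:13303994-13304023, plus strand: gactctgtggtggctggtggtggagccatT
Cct4, chr11:22999047-22999076, plus strand: agtagtatctgactatgcccagatggatcG
Gm15495, chr7:25442891-25442920, minus strand: agtagtatctgactatgcccagatggatcA
Tcp1, chr17:12920396-12920425, plus strand: aagtcagatagaaagcatgctgatcaatgG
Tcp1-ps1, chr4:68302656-68302685, minus strand: aagtcagatagaaagcatgctgatcaatgC

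All 7 subunits were among the most densely read genes of the table. Read density here is CPM per kb of counted coding sequence. Single subunits had 3014 to 22554 counts in a library, which leaves a counting error of 1.82% at the lowest count and 0.666% at the highest. This covers counting error only, since reads without molecular identifiers are not independent molecules. Density was 676 to 957 CPM per kb in total RNA and 727 to 1329.8 in RPF, and the mean of every subunit in every group lay between the 98.9th and the 99.7th percentile of the 11750 genes tested. Together the 7 genes took 0.894% to 0.985% of all counts in total RNA and 1.04% to 1.10% in RPF.

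Cct8 and Cct7, neighbours in the ring, had the highest RPF densities over all counted positions. In RPF, Cct8 reached densities of 1294, 1240.2 and 1231 in ESC replicates 1 to 3, and 1129, 1115 and 1329.8 in EpiLC replicates 1 to 3. Its total RNA density was 876, 892 and 849.6 in ESC and 912, 825 and 929 in EpiLC. Every RPF value of Cct8 was thus above every total RNA value, and the cell types overlapped in both assays. Cct7 had RPF densities of 1128, 1162 and 1246 in ESC and 1069.9, 1162 and 1145 in EpiLC. Its total RNA densities were 862, 861 and 847 in ESC and 846, 792 and 847 in EpiLC. Cct7 showed the same separation of assays as Cct8, and which of both was denser in RPF changed between libraries.

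Cct3, Cct5 and Cct2 had lower RPF densities than both. Cct3, on the side of the ring that binds ATP weakly, had RPF densities of 889, 881 and 968 in ESC and 965, 1041 and 1023 in EpiLC, which overlap. Its total RNA densities of 708, 739.7 and 724 in ESC all lay below those of 839, 796 and 861 in EpiLC. Cct5, altered in an inherited sensory neuropathy, was the most even. Its RPF densities were 879, 874 and 898 in ESC and 881, 879 and 875 in EpiLC. Its total RNA densities were 771, 771 and 788 in ESC and 792, 792 and 793 in EpiLC, a separation of a few units. Cct2 had RPF densities of 787, 817 and 870.1 in ESC and 892, 947 and 937 in EpiLC. Its total RNA densities rose from 766, 757 and 781 to 909, 914 and 957. The cell types did not overlap for Cct2 in either assay, with EpiLC higher.

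Tcp1 and Cct4 were the least dense in RPF, each in 1 cell type. Tcp1 had RPF densities of 763, 737 and 727 in ESC and 796, 815 and 874 in EpiLC. Its total RNA densities were 693, 684 and 676 in ESC and 736, 838 and 785 in EpiLC, so that EpiLC was higher without overlap in both assays. Cct4, which contacts actin during folding, went the other way in RPF, from 902, 863 and 801 in ESC to 733, 728 and 765 in EpiLC, without overlap. Its total RNA densities of 842, 836 and 799 in ESC and 762, 832 and 827 in EpiLC overlapped. The plot of read density shows these values for each library.

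**Figure D1:**
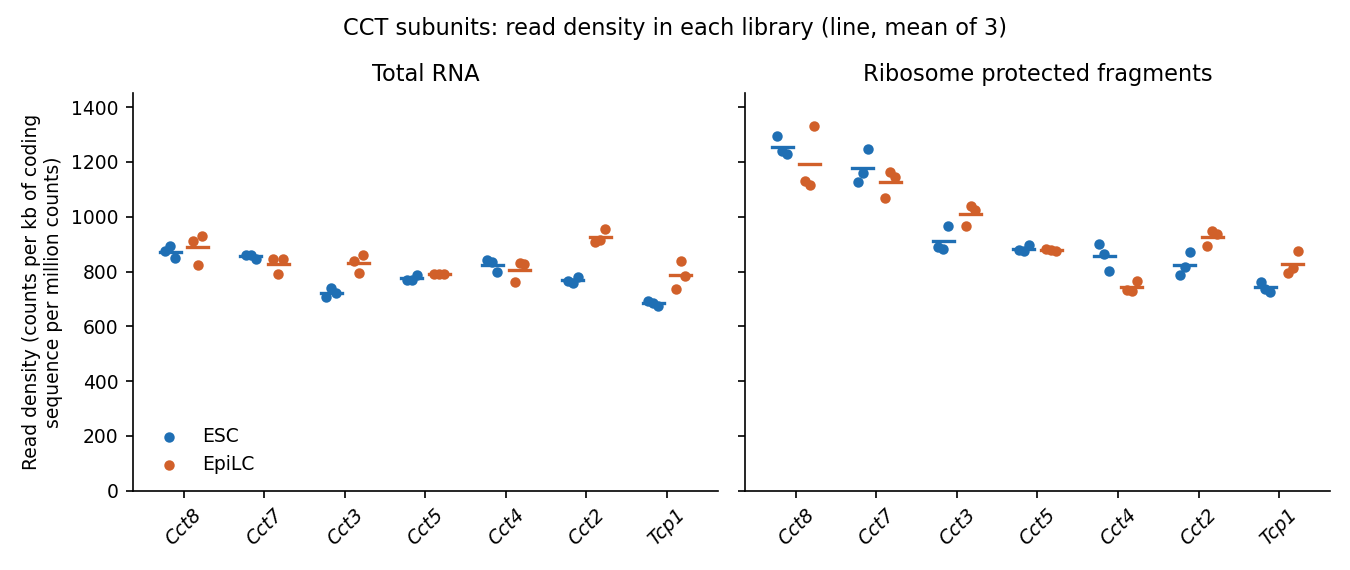
Read density (CPM per kb of counted coding sequence, y axis) of the 7 CCT subunits (x axis) in total RNA (left) and RPF (right). Points are libraries, lines are means of 3, ESC in blue and EpiLC in orange. Total RNA values stay between 676 and 957 for all subunits, while RPF values reach from 727 to 1329.8, with Cct8 and Cct7 at the top.

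Total RNA was close to an even supply of the subunits, and RPF was less even. The share of a subunit is its density divided by the summed density of the 7, so that an even share is 14.3%. In total RNA the shares of single libraries ran from 12.3% (Tcp1, ESC) to 16.1% (Cct8, ESC). In RPF they ran from 10.8% (Tcp1, ESC) to 19.5% (Cct8, ESC). The SD of log2 density over the 7 subunits was 0.07 to 0.14 in the 6 total RNA libraries and 0.22 to 0.30 in the 6 RPF libraries, without overlap. The densest subunit stood 1.16 to 1.30 times above the least dense in total RNA and 1.54 to 1.74 times in RPF. As group means, the SD was 0.13 ± 0.01 (SD, n = 3) in ESC total RNA, 0.10 ± 0.02 (SD, n = 3) in EpiLC total RNA, 0.28 ± 0.01 (SD, n = 3) in ESC RPF and 0.25 ± 0.02 (SD, n = 3) in EpiLC RPF. The subunits are the points of this SD, so it describes the complex and carries no test.

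Over all counted positions, Cct8 and Cct7 led in RPF in both cell types, and Cct3 came next by its mean, in ESC within the spread between libraries. In ESC the order was Cct8, Cct7, Cct3, Cct5, Cct4, Cct2 and Tcp1, and the neighbours whose densities did not overlap between libraries were Cct7 above Cct3 (log2 difference 0.37) and Cct2 above Tcp1 (0.15). The other neighbours were within the spread between libraries. In EpiLC the order was Cct8, Cct7, Cct3, Cct2, Cct5, Tcp1 and Cct4, and all neighbours but Cct8 and Cct7 were apart, by log2 differences of 0.07 (Cct2 above Cct5) to 0.16 (Tcp1 above Cct4, and Cct7 above Cct3). In total RNA the ESC order was Cct8, Cct7, Cct4, Cct5, Cct2, Cct3 and Tcp1, with log2 steps of 0.02 to 0.09, and Cct8 and Cct7, like Cct5 and Cct2, overlapped. The EpiLC order of total RNA was Cct2, Cct8, Cct3, Cct7, Cct4, Cct5 and Tcp1, and every neighbour pair overlapped. Across the 7 subunits, mean log2 density in RPF of ESC and of EpiLC had a Pearson r of 0.85, and in total RNA an r of 0.34. RPF against total RNA gave an r of 0.82 in ESC and 0.49 in EpiLC. These are descriptions over 7 points that share libraries and lengths.

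Leaving out the windows held by pseudogenes moved Cct3 and Cct7 up. For this the counts were kept and the length of the principal isoform, the main annotated form of each gene, was used. It was reduced to positions whose 29 nt (RPF) or 40 nt (total RNA) window occurs in no transcript of a gene elsewhere, an alternative chosen after seeing the data. The shifts therefore include the change of isoform. With the principal isoform alone, ESC RPF shares were 13.8% for Cct3, 17.5% for Cct7 and 13.1% for Cct5. The RPF share of Cct3 went from 13.7% ± 0.56 (SD, n = 3) to 15.9% ± 0.62 (SD, n = 3) in ESC and from 15.1% ± 0.44 (SD, n = 3) to 17.4% ± 0.48 (SD, n = 3) in EpiLC. That of Cct7 went from 17.7% to 18.6% in ESC and from 16.8% to 17.6% in EpiLC. Its mean was then above that of Cct8, at 17.4% in ESC and 16.4% in EpiLC, with libraries that overlapped in both. In EpiLC the mean of Cct3 was then also above that of Cct8, and Cct7 was above Cct3 by a log2 difference of 0.017, both with overlap. Tcp1 was then above Cct5 in EpiLC by 0.017, again with overlap. Cct5, with no shared window, dropped from 13.3% to 12.2% in ESC. With these lengths Cct7, Cct8 and Cct3 lay above the even share in all 6 RPF libraries and the other 4 subunits below it. The SD over the subunits was then 0.26 to 0.33 in RPF and 0.09 to 0.14 in total RNA, still without overlap.

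**Figure D2:**
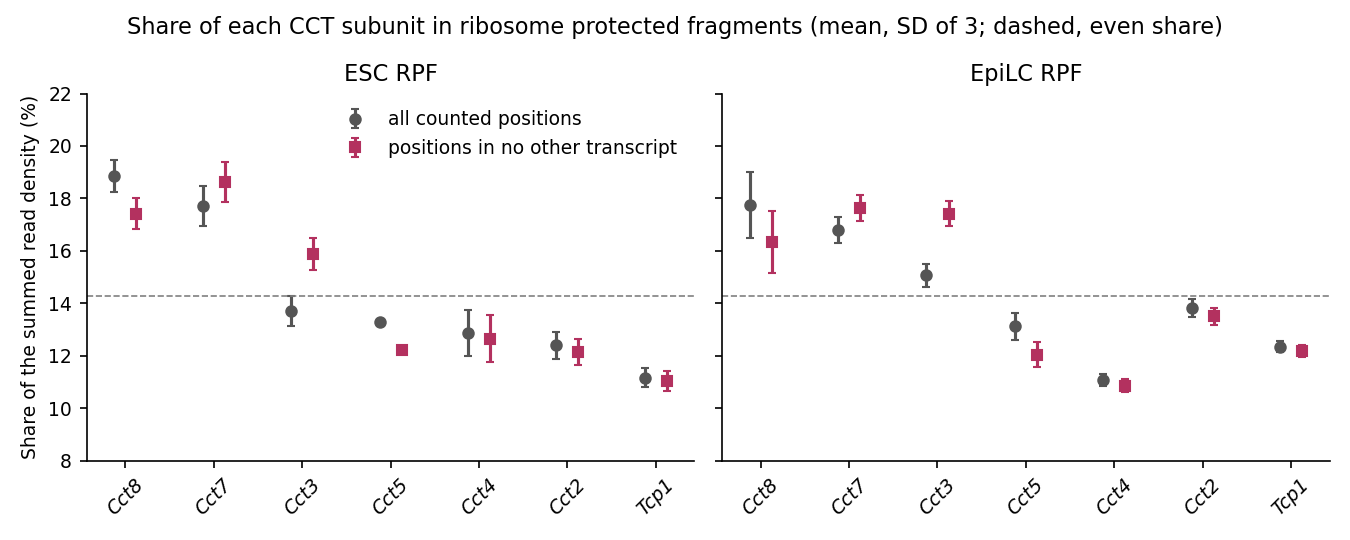
Share of each CCT subunit in the summed RPF density of the 7 (y axis, percent) in ESC (left) and EpiLC (right), as mean and SD of 3 libraries. Grey circles use all counted positions and red squares use positions of the principal isoform found in no transcript elsewhere. The dashed line is the even share of 14.3%. Cct3 shifts most in both, from 13.7% to 15.9% in ESC and from 15.1% to 17.4% in EpiLC.

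Other complexes with a fixed number of each subunit mostly had a larger SD over their subunits, with no test of the difference. Over positions found in no transcript elsewhere, the SD of log2 density in RPF was 0.51 to 0.73 over the 6 subunits of prefoldin, which hands actin and tubulin to CCT, 0.38 to 0.47 over the 6 subunits of the MCM2-7 helicase, which unwinds DNA at replication forks, and 0.32 to 0.49 over 10 of the 14 subunits of the 20S proteasome, the protein-degrading barrel. The other 4 proteasome subunits had too little such sequence and were left out. In total RNA these values were 0.28 to 0.67, 0.34 to 0.44 and 0.40 to 0.53. The ranges touched those of CCT at their ends, since CCT reached 0.33 in ESC RPF and the proteasome went down to 0.32 in EpiLC RPF. Within a cell type, RPF ranges of CCT and the proteasome were 0.28 to 0.33 and 0.42 to 0.49 in ESC. In EpiLC they were 0.26 to 0.30 and 0.32 to 0.35. A separation of RPF from total RNA was not particular to CCT. In EpiLC the proteasome was lower in RPF (0.32 to 0.35) than in total RNA (0.40 to 0.51), the reverse of CCT. On the lengths of the table, with all 14 subunits, it was higher in RPF (1.77 to 2.15) than in total RNA (1.24 to 1.39) over both cell types. The least dense of the 14 in every library was Psma3, with 96.4% of its 29 nt windows shared with other genes. The part of such lost reads in this separation was not tested. All tested genes with a count gave 2.35 to 2.58 in RPF and 2.17 to 2.37 in total RNA. The complexes differ in length, in number of subunits and in sequence shared with pseudogenes, and the part of these in the comparison was not tested.

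**Figure D3:**
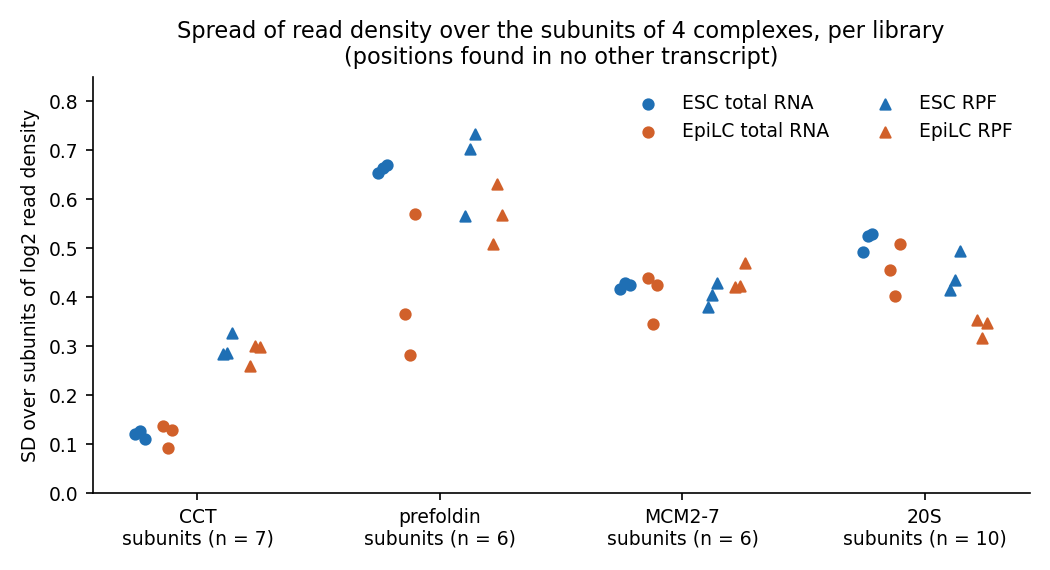
SD over subunits of log2 read density (y axis) for CCT and 3 other complexes (x axis, n is the number of subunits), each point a library, circles for total RNA and triangles for RPF, ESC in blue and EpiLC in orange, over positions found in no transcript of a gene elsewhere. CCT lies at 0.09 to 0.14 in total RNA and at 0.26 to 0.33 in RPF, and the other complexes lie at 0.28 or above in both assays.

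The ratio of RPF to total RNA, used as a measure of translational efficiency (TE), differed between the subunits. TE was tested with limma on all genes, as log2 RPF over total RNA within a cell type, where 0 is the level at which a gene has the same CPM, after scaling, in both assays. In ESC, 6 of the 7 subunits were above 0 and none below, where 33.0% of the 11750 genes tested were above and 34.5% below. Cct8 had a log2 TE of 0.52 ± 0.05 (SE, limma adjusted p = 2.9e-09), Cct7 0.46 ± 0.04 (adjusted p = 1.5e-09), Cct3 0.34 ± 0.05 (adjusted p = 5.1e-07) and Cct5 0.19 ± 0.04 (adjusted p = 0.00016). Tcp1 and Cct2 passed narrowly, at 0.12 (limma adjusted p = 0.038) and 0.11 (adjusted p = 0.039), and Cct4 was at 0.04 (adjusted p = 0.43). In EpiLC, 4 of the 7 were above 0 and none below, where 31.3% of genes were above and 33.0% below. These were Cct7 at 0.43 ± 0.05 (SE), Cct8 at 0.42 ± 0.06 (SE), Cct3 at 0.27 ± 0.05 (SE) and Cct5 at 0.15 ± 0.04 (SE), with limma adjusted p of 3.0e-08, 5.7e-07, 3.3e-05 and 0.0037. Tcp1 (0.09), Cct2 (0.00) and Cct4 (-0.11) did not pass. The median over the subunits was 0.19 in ESC and 0.15 in EpiLC, beside -0.02 and -0.01 over all genes. None of the 7 was above 1, a level that 7.93% of genes passed in ESC and 9.39% in EpiLC.

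Pairing libraries by replicate number, the log2 TE of Cct8 was 0.56, 0.48 and 0.53 in ESC and 0.31, 0.43 and 0.52 in EpiLC. That of Cct4 was 0.10, 0.05 and 0.00 in ESC and -0.06, -0.19 and -0.11 in EpiLC. The values of Cct8 and Cct4 were thus apart in both cell types, by more than the spread between the ratios of this matching. The numbers do not mark known pairs, so this spread belongs to 1 of the possible matchings. Over the 6 pairs of libraries the subunits lay between the 42.5th (Cct4) and the 77.3rd (Cct8) percentile of log2 TE over the genes tested, so none was extreme in TE although all were extreme in density.

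**Figure D4:**
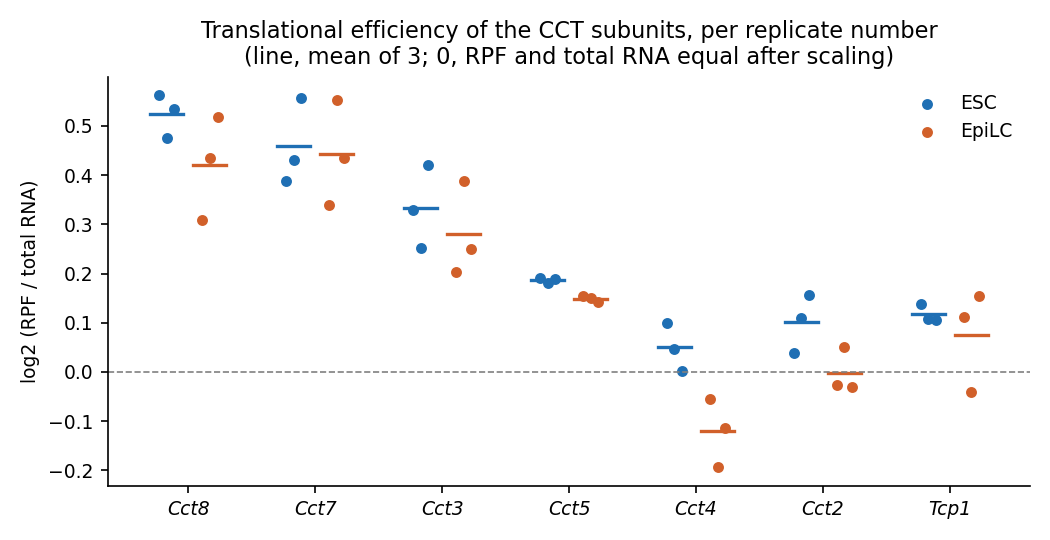
Log2 ratio of RPF to total RNA (y axis) of the 7 CCT subunits (x axis), each point a pair of libraries with the same replicate number, lines the means of 3, ESC in blue and EpiLC in orange. Cct8, Cct7 and Cct3 lie above 0 in every pair, and Cct4 lies between -0.19 and 0.10.

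The order in log2 TE moved when GC content was taken into account. The GC content of the coding sequence ran from 43.9% in Tcp1 and Cct4 to 51.6% in Cct7, below the median of 52.9% over the tested genes. The part of GC content in the library steps or in translation itself was not tested. With a smooth trend on GC content removed from each library, all 7 subunits were above 0 in both cell types. Cct8 was then highest in both, at 0.79 in ESC and 0.84 in EpiLC, Cct4 moved to 0.32 and 0.32, Tcp1 to 0.39 and 0.52, and Cct2 became the lowest, at 0.18 and 0.16. The order of Cct7, Cct3, Cct4 and Tcp1, and in EpiLC that of Cct8 and Cct7, therefore depended on this step, while Cct8 was above Cct2 and Cct5 with and without it. The log2 TE was not corrected for windows held by pseudogenes. These were 18.9% of the 29 nt and 8.04% of the 40 nt windows in Cct3, and 12.5% and 5.54% in Cct7. Over positions found in no transcript elsewhere, Cct7 and not Cct8 had the highest ratio of RPF to total RNA density in ESC. In ESC, edgeR, limma-trend, total counts or another filter on low counts left 4 subunits above 0, without Tcp1 and Cct2. Leaving out any 1 of the ESC total RNA libraries had the same effect on both. Without ESC RPF replicate 3, Cct2 was lost (0.08, limma adjusted p = 0.17) and Cct4 was called above 0 (0.12, adjusted p = 0.044). In EpiLC, Tcp1 was called above 0 without ESC RPF replicate 1 or 3, EpiLC RPF replicate 1 or EpiLC total RNA replicate 2 (0.11 to 0.14, limma adjusted p of 0.031 to 0.047), and Cct4 below 0 without EpiLC total RNA replicate 1 (-0.16, adjusted p = 0.017). The EpiLC ratio itself holds no ESC library. Without ESC RPF replicate 1 or 3 the scaling was refitted, and its median over all genes moved from -0.015 to 0.002.

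From ESC to EpiLC the subunits changed little, and 3 of them rose in mRNA. By limma, 3 of the 7 subunits were higher in EpiLC total RNA and none lower, where 34.6% of all genes tested were higher and 30.7% lower. Cct2 rose by 0.27 ± 0.04 (log2, SE, limma adjusted p = 6.1e-06), or 1.21-fold. Cct3 rose by 0.20 ± 0.05 (log2, SE, limma adjusted p = 0.00037) and Tcp1 by 0.19 ± 0.05 (log2, SE, limma adjusted p = 0.0011), the former 1.15-fold. Cct8 (0.03), Cct5 (0.03), Cct4 (-0.04) and Cct7 (-0.04) did not pass, with adjusted p of 0.40 to 0.62. None of the 7 passed the limit on size used in the study (absolute log2 change above 1), which 14.6% of genes passed upwards and 9.70% downwards. The median change was 0.03 both over the subunits and over all genes. In bulk samples, less RNA per cell cannot be told apart from fewer cells of a type.

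In RPF the same 3 subunits were higher in EpiLC and Cct4 was lower, so 3 of 7 rose and 1 of 7 fell, where 31.1% of genes were higher and 28.7% lower. Cct2 rose by 0.16 ± 0.05 (log2, SE, limma adjusted p = 0.0065), Tcp1 by 0.16 ± 0.05 (adjusted p = 0.012) and Cct3 by 0.14 ± 0.05 (adjusted p = 0.021). Cct4 fell by 0.20 ± 0.05 on the log2 scale (limma adjusted p = 0.0032), to 0.873 of its ESC level. Cct7 (-0.07), Cct8 (-0.07) and Cct5 (-0.01) did not pass, and none of the 7 passed the limit on size, which 15.4% of genes passed upwards and 10.6% downwards. The calls of a rise in RPF did not all hold when 1 library was left out. Without ESC RPF replicate 2 or EpiLC RPF replicate 3 none of the 7 was called higher, and without ESC RPF replicate 1 or EpiLC RPF replicate 2 only Tcp1 was. Leaving out an RPF library also rescaled the others. The median RPF change over all genes then moved from 0.011 to between -0.027 and -0.019. The part of this rescaling in the lost calls was not tested. DESeq2 called Cct2 and Tcp1 but not Cct3 (adjusted p = 0.080). Whether Cct8 and Cct7 passed also changed when single libraries were left out. Cct8 was called lower without EpiLC RPF replicate 3 (-0.19, adjusted p = 0.0076) and Cct7 without ESC RPF replicate 1 (-0.15, adjusted p = 0.015). The fall of Cct4 held without any single library but missed the threshold after the GC step (-0.10, adjusted p = 0.063).

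TE did not change detectably in any subunit. By limma, none of the 7 passed for TE in either direction, where 0.570% of genes passed upwards and 0.630% downwards, or 67 and 74 genes. Scaling by total counts gave 84 and 51 genes instead, and the GC step 104 and 43. At an unadjusted p below 0.05, 1 subunit passed with limma and with edgeR and none with DESeq2, and that subunit was Cct4. Its log2 TE change was -0.15 ± 0.07 (SE, limma adjusted p = 0.34). The estimates of all 7 were below 0, from -0.15 to -0.03, with a median of -0.07 beside 0.01 over all genes. After the GC step 5 of the 7 were above 0, and with total counts Tcp1 was at 0.00, so the shared sign depended on the processing. None was past the limit on size, which 0.136% of genes passed upwards and 0.119% downwards.

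**Figure D5:**
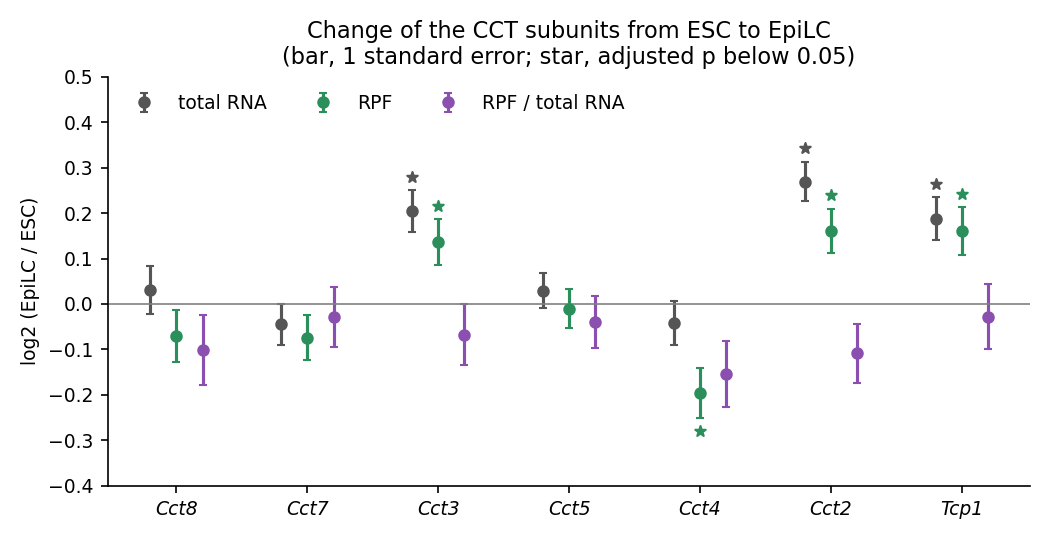
Log2 change from ESC to EpiLC (y axis) of the 7 CCT subunits (x axis) in total RNA (grey), RPF (green) and their ratio (purple), from limma on all genes, bars 1 standard error, stars an adjusted p below 0.05. Cct2, Cct3 and Tcp1 were called higher in total RNA and RPF, Cct4 lower in RPF, and no ratio was called.

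The other genes of this folding pathway were counted in the same way, beside the shares of all genes given before (34.6% higher and 30.7% lower in total RNA, 31.1% and 28.7% in RPF). Among the phosducin-like proteins, which bind CCT and aid the folding of its clients, 1 of 4 was higher in total RNA and 1 lower, and 2 were higher and 2 lower in RPF, with a median change of 0.04 in total RNA. Pdcl3 rose by 0.36 ± 0.09 (log2, SE, limma adjusted p = 0.0010) in total RNA, and Pdcl2 fell by 4.35 ± 0.57 on the log2 scale (limma adjusted p = 3.4e-07), from 105 to 148 counts in ESC to 1 to 8 in EpiLC. Of the prefoldin subunits, 1 of 6 was higher and 2 lower in total RNA and likewise in RPF, with a median of 0.03 in total RNA. Pfdn1 fell by 0.80 on the log2 scale in total RNA and by 1.13 in RPF, from 200.4 to 207 CPM in ESC RPF to 91.5 to 98.5 CPM in EpiLC RPF. Of the 4 tested chaperonin-like genes, 1 was higher and 1 lower in total RNA, and 2 were lower in RPF. Cct6b, the paralog of Cct6a known from testis, fell by 1.71 ± 0.54 in RPF on the log2 scale (limma adjusted p = 0.0082), at 2 to 6 counts in EpiLC, and Mkks, a chaperonin-like protein of ciliary disease, by 1.55 ± 0.54 (limma adjusted p = 0.016), at 2 to 4 counts in EpiLC. The call of Mkks was lost without EpiLC RPF replicate 1 (-1.23, adjusted p = 0.087).

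Of 15 HSP70, HSP90 and HSP60 chaperones and their partners, 10 were lower and none higher in total RNA, where 30.7% of all genes were lower and 34.6% higher, with a median of -0.19 beside 0.03. In RPF 7 were lower and 3 higher, where 28.7% of all genes were lower and 31.1% higher. Without EpiLC RPF replicate 3 only 1 was higher. One of them was the only gene of these lists called for TE, the HSP90 partner Ptges3, with a TE change of 2.28 ± 0.27 (log2, SE, limma adjusted p = 5.7e-05), from 5.87 to 6.59 CPM in ESC RPF to 16.7 to 28.9 CPM in EpiLC RPF. Its counts there were 31 to 154, and how much of its sequence other genes share was not tested. Of the 6 MCM subunits, 5 were lower in total RNA and 4 in RPF, and of the 14 proteasome subunits 6 were lower in each and 1 and 2 higher. Among 13 actins and tubulins, the main substrates of CCT, 5 were higher and 3 lower in total RNA, with 3 higher under edgeR, DESeq2 or limma-trend, and 5 higher and 3 lower in RPF. Tuba1a rose by 1.44 ± 0.12 (log2, SE, limma adjusted p = 2.3e-10) and Tubb2b fell by 1.63 ± 0.10 on the log2 scale (limma adjusted p = 1.5e-13) in total RNA. Actg1, a cytoplasmic actin, rose by 1.63 ± 0.56 in RPF (log2, SE, limma adjusted p = 0.015) at 12 to 55 counts, a call lost without EpiLC RPF replicate 3 (adjusted p = 0.091). Actin and tubulin genes have near-identical copies, so their counts from reads with 1 mapping position are uncertain. Of 9 other clients, 3 were higher and 3 lower in total RNA, and 1 higher and 1 lower in RPF, where 31.1% and 28.7% of all genes were. Without 1 library at a time, those lower ran from 3 to 5 in total RNA and from 1 to 3 in RPF. In total RNA Stat3 fell by 2.33 ± 0.11 on the log2 scale (limma adjusted p = 2.5e-15). Of 5 tubulin folding cofactors, 1 was higher and 2 lower in total RNA, and 2 were higher and 2 lower in RPF.

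Genes outside the complex were ranked by how closely their log2 CPM followed the mean of the 7 subunits over the 12 libraries. Among the 5 highest Pearson r were those of Tardbp (0.983), an RNA-binding protein, Ctnnb1 (0.977), the beta-catenin of cell junctions and Wnt signalling, Emd (0.977), a protein of the inner nuclear membrane, and Pdcl3 (0.975). Single subunits had an r of -0.23 to 0.95 with their own mean, whose range over the libraries was only 0.33 on the log2 scale. These 4 had a log2 TE above 0 in both cell types, from 0.57 to 1.30, and the 12 libraries share assay and cell type, so they are not 12 independent points.

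Promoters of 6 of the subunits were in the RefSeq table (GRCm38.p6, 250 bases before to 50 after each start), with 8 start sites among them and none for Cct4. The GC box GGGCGG, on either strand, was in 7 of the 8 and in 35.7% of all 32851 promoters. The CCAAT box CCAAT was in 3 of 8 (37.4% of all), the ETS site CCGGAAG in 3 of 8 (8.86%), the heat shock element core GAANNTTC in 1 of 8 (7.86%) and the NRF1 core in 1 of 8 (0.971%). The E-box CACGTG (7.15%) and the TATA box TATAAA (13.6%) were in none. These are matches of letters and not sites shown to be bound. The lines show, for the 3 subunits that rose in total RNA and for Cct8, which did not, the GC box or the heat shock element core in capitals, as the strand of the gene reads.
Cct2, chr10:117063880-117063909, minus strand: ccaactgaggtcCCGCCCcttctccagcga
Cct2, second start site, chr10:117063399-117063428, minus strand: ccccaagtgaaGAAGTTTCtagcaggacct
Cct3, chr3:88297029-88297058, plus strand: ttcttgcgtagaGGGCGGggctaatactgt
Tcp1, chr17:12916211-12916240, plus strand: cgttgaggcggaGGGCGGgacacgctagcc
Cct8, chr16:87495900-87495929, minus strand: tgcaggttgaagGGGCGGggcgaccggaag
Of the 6 subunits with a promoter in the table, all had a GC box, the 3 that rose in total RNA (Cct2, Cct3 and Tcp1) and the 3 that did not pass (Cct5, Cct7 and Cct8).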

How the data were processed

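The authors deposited raw counts per gene, together with the length of the counted sequence. Per the labels and the study's methods, adapter sequence was removed with cutadapt 1.14 (fragments of 26 to 32 nt kept for RPF, 32 nt or longer for total RNA), reads placed once in mm10 were kept with STAR 2.5.3a, and their 5′ ends were assigned on the sense strand with featureCounts 1.5.3 to Gencode M14 coding sequence lacking its initial 45 nt. How PCR duplicates were treated is not given in the sources used here. Groups and replicate numbers came from the sample titles.

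Genes with at least 3 CPM, for this filter by unadjusted library totals, in at least 3 libraries were tested (11750). Counts were scaled with TMM (edgeR 4.0.16) and fitted with voom and limma 3.58.1 in R 4.3.3, with the 4 groups as levels, 2-sided tests and Benjamini-Hochberg adjustment over all tested genes. Calls were made at an adjusted p of 0.05. edgeR's quasi-likelihood test and DESeq2 1.42.0 served as alternatives. Scripts were tested on simulated data. Same-group libraries differed beyond sampling noise (chi-square per degree of freedom 2.46 to 7.19). Gene symbols were matched for 22385 of 22462 identifiers. Coding lengths, GC content (for 99.9% of the tested genes) and shared windows came from Gencode M21.

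The subunits, the other lists and the tests were chosen with earlier results of these data known. Named were all subunits, up to 3 genes per other list past the limit on size, the cell type markers and the 5 genes of most similar profile, of which 1 is not reported here. Pdcl3 was also given its fold change, chosen after its values were seen.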

Additional observations from a re-analysis of the deposited data

How the results depend on the processing

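The 3 rises in mRNA held under every alternative but the limit on size, which left 0 of 7 in mRNA and 0 higher and 0 lower in RPF. A GC trend removed per library gave 1 subunit lower in mRNA (Cct4, -0.09), 0 lower in RPF and 7 above 0 for TE in EpiLC, without and with the replicate block. Total counts, or every gene with a count, gave 1 below 0 for TE in EpiLC (Cct4). Without 1 library at a time, subunits higher in RPF ran from 0 to 3, lower in RPF from 1 to 2 (2 without ESC RPF replicate 1, with Cct7, or EpiLC RPF replicate 3, with Cct8), and below 0 for TE in EpiLC from 0 to 1 (1 without EpiLC RNA replicate 1).

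Small estimates that did not pass changed sign. In mRNA, Cct5 was at -0.013 with DESeq2, -0.012 with its size factors and -0.0042 with every gene, and Cct8 at -0.015, -0.010 and, after the GC step, -0.022 (-0.023 with the block). In RPF, Cct5 was at 0.017 with total counts and 0.0429 after the GC step (0.0427 with the block), and Cct8 at 0.0261 (0.0269). The TE change of Tcp1 was 0.0020 with total counts and 0.126 after the GC step (0.125 with the block), and those of Cct3 0.0016 (0.0023), Cct5 0.022 (0.023), Cct7 0.0069 (0.0074) and Cct8 0.048 (0.0502). The TE level of Cct4 was -0.028 in ESC with total counts and 0.32 (0.32) in EpiLC after the GC step, and that of Cct2 in EpiLC was 0.053 with DESeq2, 0.052 with its size factors, 0.0060 with at least 10 counts and 0.161 (0.159) after the GC step. Without 1 library, the mRNA change ran from -0.0798 to 0.014 for Cct4, -0.0081 to 0.038 for Cct5 and -0.0061 to 0.0836 for Cct8, the TE change from -0.086 to 0.0097 for Tcp1 and -0.0693 to 0.024 for Cct7, and the TE level of Cct2 in EpiLC from -0.0249 to 0.045. The mRNA changes of Cct5 and Cct8 turned below 0 only without an RPF library, which that comparison does not hold. In these fits the median mRNA change over all genes moved from 0.026 to between -0.0089 and -0.0083. The cause of the changes of sign was not tested.

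With the length of the principal isoform or of unshared positions, both chosen after seeing the data, the SD over the subunits was 0.12 and 0.12 in ESC total RNA, 0.27 and 0.30 in ESC RPF, and 0.29 with unshared positions in EpiLC RPF. The densest subunit was 1.67 times above the least dense in ESC RPF (principal isoform) and 1.26 and 1.26 times in EpiLC total RNA, where the highest share was 16.5% and 16.1%.

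Same-numbered libraries did not deviate together (correlations of -0.117 to 0.119), so the numbers were not taken as pairs. A replicate block changed no count of subunits, which stayed at 3 higher in mRNA, and raised the TE calls over all genes from 67 higher and 74 lower to 128 and 133. A block joining the RPF and total RNA of a number gave 96 and 104, DESeq2 145 and 140, limma-trend 38 and 45, every gene 40 and 27, and the GC step with the block 169 and 69. Lengths of RefSeq proteins and windows unique in the genome were planned and not run. Depth was lowest in EpiLC RPF replicate 2 (2681439 counts), where each subunit still had at least 3014 counts, so the spread between libraries and not counting limits these comparisons.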
